A study of Sus scrofa with 30 samples.

Results

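The comparison described here is between the mesenchymal tissue of inverted teats and the mesenchymal tissue of normal teats from pigs that had no inverted teat. It rests on 10 of the 30 arrays of the series: the 5 arrays labelled mesenchymal, inverted teat and affected animal, and the 5 labelled mesenchymal, normal teat and non-affected animal. All 10 come from different animals, so the comparison is unpaired. The series holds 6 groups of 5 arrays, because mesenchymal and epithelial tissue were each taken from inverted teats of affected animals, normal teats of the same affected animals and normal teats of non-affected animals.

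An inverted teat is one whose tip does not protrude, and teats were sorted by eye and by touch, per the labels. The animals were peripubertal pigs of commercial dam lines, sampled at slaughter at a mean end weight of 110 kg. The inverted teats came from 1 German Landrace animal (963), 3 Large White x German Landrace animals (964, 1037 and 1059) and 1 animal (1103) whose breed is given as Pietrain x (Large White x German Landrace). The non-affected teats had the same breed composition, with animal 957 of German Landrace, animals 950, 1040 and 1058 of Large White x German Landrace, and animal 1109 of the Pietrain cross. No agent was given in either group, per the labels. The sex of the animals and the position of the teat on the animal are not given in the sources used here. RNA from each sample was labelled from 500 ng of total RNA and hybridised to an Affymetrix Porcine Genome array, and levels are given on the deposited scale, read here as log2.

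The teat forms where a bud of ectoderm meets a condensed mesenchyme. In the embryo, parathyroid hormone-like hormone (PTHLH) from the epithelium acts through the receptor PTH1R in the underlying mesenchyme, which in turn makes the overlying skin a nipple. The mesenchymal compartment of a grown teat holds connective tissue, smooth muscle, vessels and nerves around the epithelium of the teat canal.

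The connective tissue genes COL1A2 (10.45 to 11.77), DCN (12.51 to 13.13), LUM (10.39 to 12.18) and VIM (13.01 to 13.50) were high on all 10 arrays, and COL3A1 lay between 5.42 and 7.06. These genes show that connective tissue was sampled. DCN did not set the mesenchymal samples apart from the epithelial samples of the series, where it ranged from 11.84 to 13.25. The other connective tissue genes were not compared in this way. The samples also held other tissues in unequal amounts. Genes of fast skeletal muscle averaged 3.16 on the inverted array of animal 963 and 2.96 on the non-affected array of animal 1040, against 10.26 to 13.12 on the other 8 arrays. Thus 1 array in each group lacked the muscle signal, and TNNT3, fast troponin T, was listed at 0 on exactly those arrays.

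Gland markers varied as widely. The mean of KRT8, KRT18 and KRT19, keratins of the luminal gland epithelium, was 10.39, 11.14, 5.19, 9.65 and 8.76 on the inverted arrays (animals 963, 964, 1037, 1059 and 1103). On the non-affected arrays it was 9.15, 10.65, 7.28, 2.63 and 6.64 (animals 950, 957, 1040, 1058 and 1109). The groups overlapped and the means were 9.03 ± 2.32 against 7.27 ± 3.04 (SD, n = 5 each). The 15 epithelial arrays of the series ranged from 6.75 to 10.7 on the same measure, so several mesenchymal arrays held as much keratin signal as epithelial ones. CSN2, beta-casein, was between 12.94 and 16.17 on 2 inverted arrays (963 and 964) and 13.83 and 15.47 on 2 non-affected arrays (957 and 950), and between 4.79 and 6.39 on the other 6. In such bulk samples, fewer cells of a type and less RNA per cell cannot be told apart. The part of muscle, gland and milk signal in any difference below was tested only through the covariates named in the closing section.

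**Figure D1:**
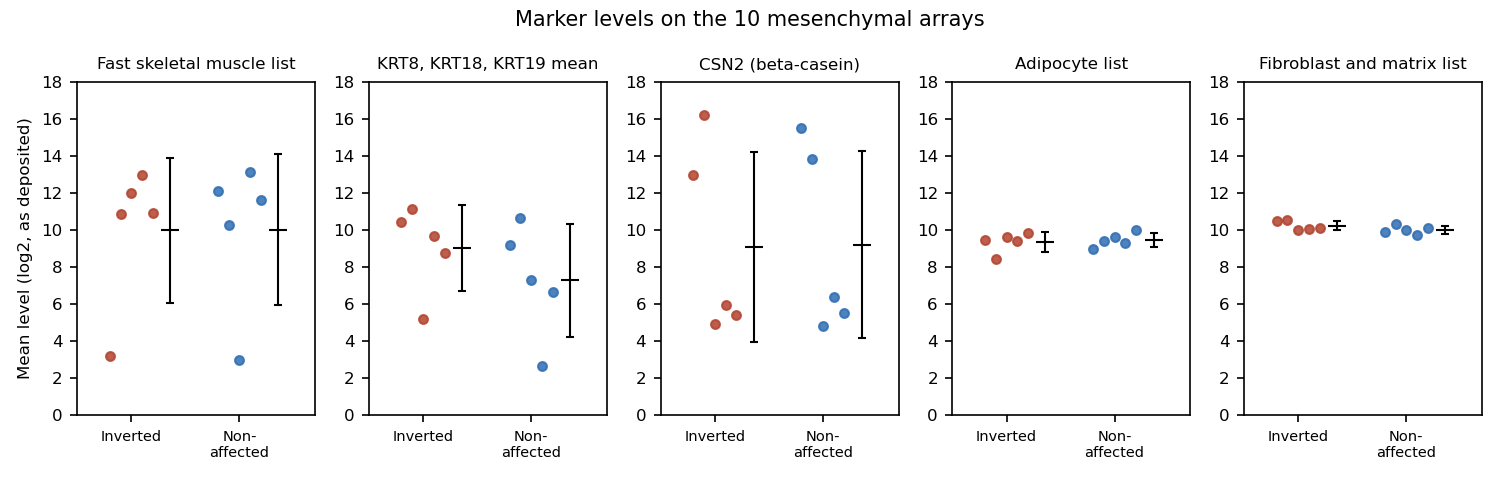
Mean level (log2, as deposited) of the fast skeletal muscle list, the keratins KRT8, KRT18 and KRT19, CSN2, the adipocyte list and the fibroblast and matrix list on the 5 inverted and 5 non-affected mesenchymal arrays, with 1 point per array and the group mean ± SD beside them. Muscle was low on 1 array of each group (3.16 and 2.96), the keratin mean ran from 2.63 to 11.14, and CSN2 was high on 2 arrays of each group, while the matrix list lay between 9.73 and 10.52.

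No probe set passed the test between inverted and non-affected mesenchyme. After Benjamini-Hochberg adjustment of limma's moderated test, 0 of 17850 probe sets had an adjusted p under 0.05 (0%), and the smallest adjusted p was 0.99997. At an unadjusted p under 0.05 there were 219 probe sets (1.23%), 157 of them higher (0.88%) and 62 lower (0.347%) in inverted teats, where 892 would be 5% of those tested. The groups did not overlap at 65 probe sets (0.364%), with every inverted array above every non-affected array at 59 (0.331%) and below at 6 (0.0336%). With 5 arrays against 5 and labels assigned at random, the exact permutation probability of no overlap at a probe set is 0.00794. The observed share of 0.364% was below that, so a lack of overlap at single genes below is a description only. Without the non-affected array of animal 957, 439 probe sets had an unadjusted p under 0.05 and still none passed the adjustment.

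The typical difference was small and the typical error was larger. The median absolute difference was 0.15 and the median standard error 0.26 (both log2). For 14379 probe sets (80.6%) the 95% interval of the difference lay within ±1, and 128 had a difference beyond ±1, 96 upward and 32 downward. More probe sets had a higher mean in inverted teats (58.7%), with a median difference of 0.05 over all probe sets. After quantile normalization this share was 51.5%, and after centring each array on its median 55.0%. Among the probe sets with an unadjusted p under 0.05, 71.7% were higher as deposited, 55.3% (109 of 197) after quantile normalization and 58.5% (124 of 212) after median centring.

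**Figure D2:**
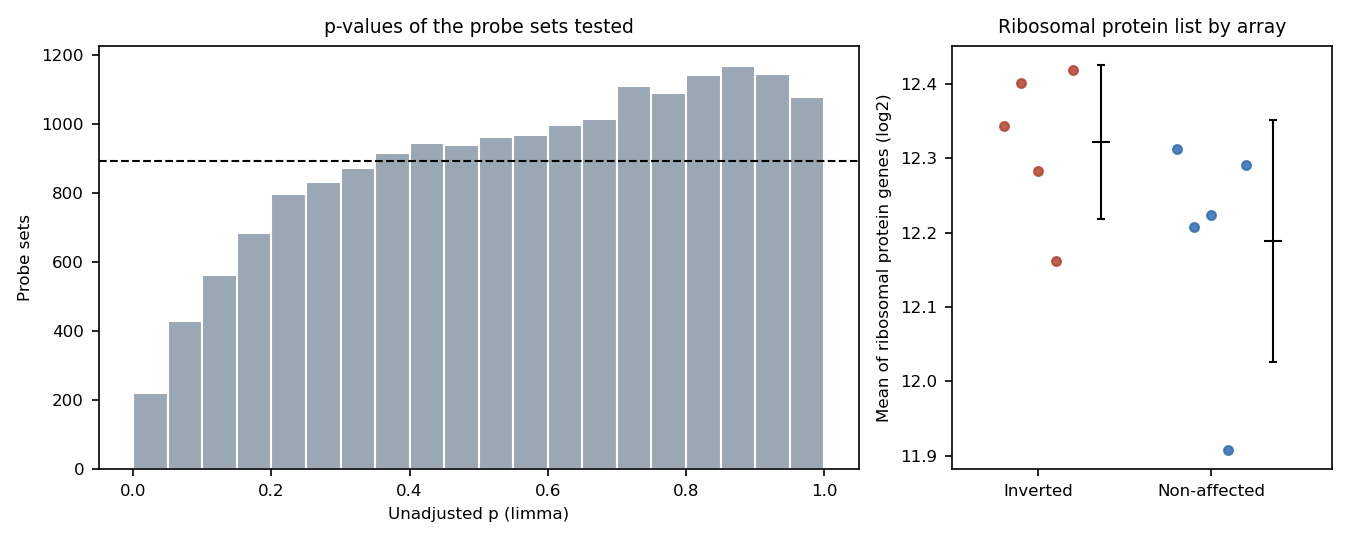
Left, the unadjusted limma p-values of the 17850 probe sets in 20 equal bins, with the dashed line at 5% of the probe sets (892). The lowest bin holds 219 probe sets, below that line. Right, the mean of the ribosomal protein genes (log2) on each inverted and non-affected array, with group means ± SD; the groups overlap, from 12.16 to 12.42 and from 11.91 to 12.31.

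The other mesenchymal comparisons are given beside it for scale. Inverted teats against normal teats of the same affected animals gave 0 adjusted calls and 78 probe sets at an unadjusted p under 0.05 (0.437%). Normal teats of affected animals against non-affected teats gave 0 and 201 (1.13%). These comparisons share arrays with the one described here, so their values are listed side by side for single genes and not correlated.

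Of genes higher in inverted teats, the 8 with the smallest unadjusted p are described first, and none of them passed the adjustment (limma, adjusted p of 1.0 for each). TMPRSS15, enteropeptidase, a serine protease of the gut, lay near the low end of the scale. Its level was 5.18, 4.53, 4.92, 4.87 and 4.71 on the inverted arrays (963, 964, 1037, 1059, 1103). It was 4.33, 4.40, 4.15, 3.88 and 4.37 on the non-affected arrays (950, 957, 1040, 1058, 1109). Every inverted array was above every non-affected array, but 6 of the 10 values were under their array's 30th percentile. The difference was 0.62 ± 0.17 (SE, log2), and the normal teats of affected animals averaged 4.68.

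ASPA, aspartoacylase, which splits N-acetylaspartate, had the largest difference of the 8, at 2.48 ± 0.68. Its inverted levels were 5.12, 5.28, 5.25, 4.87 and 3.80. Its non-affected levels were 3.98, 0, 4.12, 1.88 and 1.95. Only the inverted array of animal 1103 overlapped the non-affected ones, and again 6 of the 10 values were under the 30th percentile, where a log2 difference of this size is between very weak signals. SLC35A4, a Golgi membrane protein of the nucleotide sugar transporter family, was better expressed. It stood at 7.49, 7.86, 7.91, 7.54 and 7.53 in inverted teats and at 6.75, 7.33, 7.06, 7.12 and 7.32 in non-affected teats. Those groups did not overlap, the difference was 0.55 ± 0.17, and the gene's other probe set gave 0.38.

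A further 3 of the 8 genes act on RNA or in the nucleolus. DDX27, an RNA helicase of large ribosomal subunit assembly, was 6.92, 6.94, 6.70, 7.14 and 6.89 in inverted teats and 6.46, 6.54, 6.34, 6.63 and 6.58 in non-affected teats. CWC25, a splicing factor, was 6.14, 6.77, 6.21, 6.62 and 6.46 against 5.92, 5.90, 5.93, 5.95 and 6.11. Both had every inverted array above every non-affected array, with differences of 0.41 ± 0.14 and 0.48 ± 0.16. DKC1, dyskerin, the pseudouridine synthase of box H/ACA particles, was 7.54, 7.69, 7.61, 7.38 and 7.24 against 6.89, 7.01, 7.15, 7.01 and 7.26. Animal 1103 fell within the range of the non-affected arrays, the difference was 0.43 ± 0.14, and the gene's other probe set gave 0.35.

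The remaining pair were genes of the cytoskeleton. TACC3, a mitotic spindle protein, was 5.19, 5.22, 5.45, 4.63 and 5.41 in inverted teats and 3.88, 5.55, 3.97, 3.71 and 3.94 in non-affected teats. The highest of all 10 was the non-affected array of animal 957, and the difference was 0.97 ± 0.31. The values of TACC3 on non-affected arrays 950, 1040, 1058 and 1109 and on inverted array 1059 were under their array's 30th percentile. Its difference therefore rests largely on weak signals. TTLL4, a tubulin glutamylase, differed by 0.79 ± 0.27 and its groups overlapped. For TACC3 and TTLL4 the normal teats of the affected animals averaged 5.44 and 5.68, close to the inverted means of 5.18 and 5.76.

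The 8 genes lower in inverted teats with the smallest p likewise failed the adjustment (limma, adjusted p of 1.0 for each). FOXA2, a forkhead transcription factor of endoderm and glands, was the only named gene among the lower ones whose groups did not overlap. It read 4.54, 3.38, 4.72, 4.59 and 4.84 on the inverted arrays against 5.26, 4.96, 5.20, 5.25 and 4.92 on the non-affected ones. The value of animal 964 stood apart from the other 4 inverted values. On 3 arrays, all inverted (963, 964 and 1059), FOXA2 was under the array's 30th percentile, so its separation rests partly on weak signals. The difference was -0.70 ± 0.24, and the normal teats of affected animals averaged 5.15.

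ADGRL4, an adhesion receptor of the endothelium, was 6.12, 6.47, 6.60, 5.34 and 6.56 in inverted teats and 7.78, 6.46, 6.71, 7.29 and 6.94 in non-affected teats. Only the non-affected array of animal 957 fell among the inverted ones, and the difference was -0.82 ± 0.30. The normal teats of affected animals averaged 6.31, near the inverted mean of 6.22. OCIAD2, a mitochondrial and endosomal membrane protein, differed by -0.69 ± 0.24 (5.16 ± 0.41 against 5.84 ± 0.44, SD, n = 5 each), with 5.21 in the normal teats of affected animals.

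RHBG, an ammonium transporter, differed by -0.84 ± 0.28, from 4.13 ± 0.35 in inverted to 4.97 ± 0.42 in non-affected teats (SD, n = 5 each). DICER1, the ribonuclease that cuts microRNA precursors, differed by -0.56 ± 0.23. Both had 5 or 6 of their 10 values under the 30th percentile, and so did ENPEP, aminopeptidase A (-1.17 ± 0.53), while CFAP126, a cilia protein (-1.08 ± 0.46), had 7. SLC41A1, a magnesium transporter, was well measured at 7.58 ± 0.15 against 8.11 ± 0.49 (difference -0.53 ± 0.24), but 2 of its 3 other probe sets pointed the other way, at 0.14 and 0.23.

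**Figure D3:**
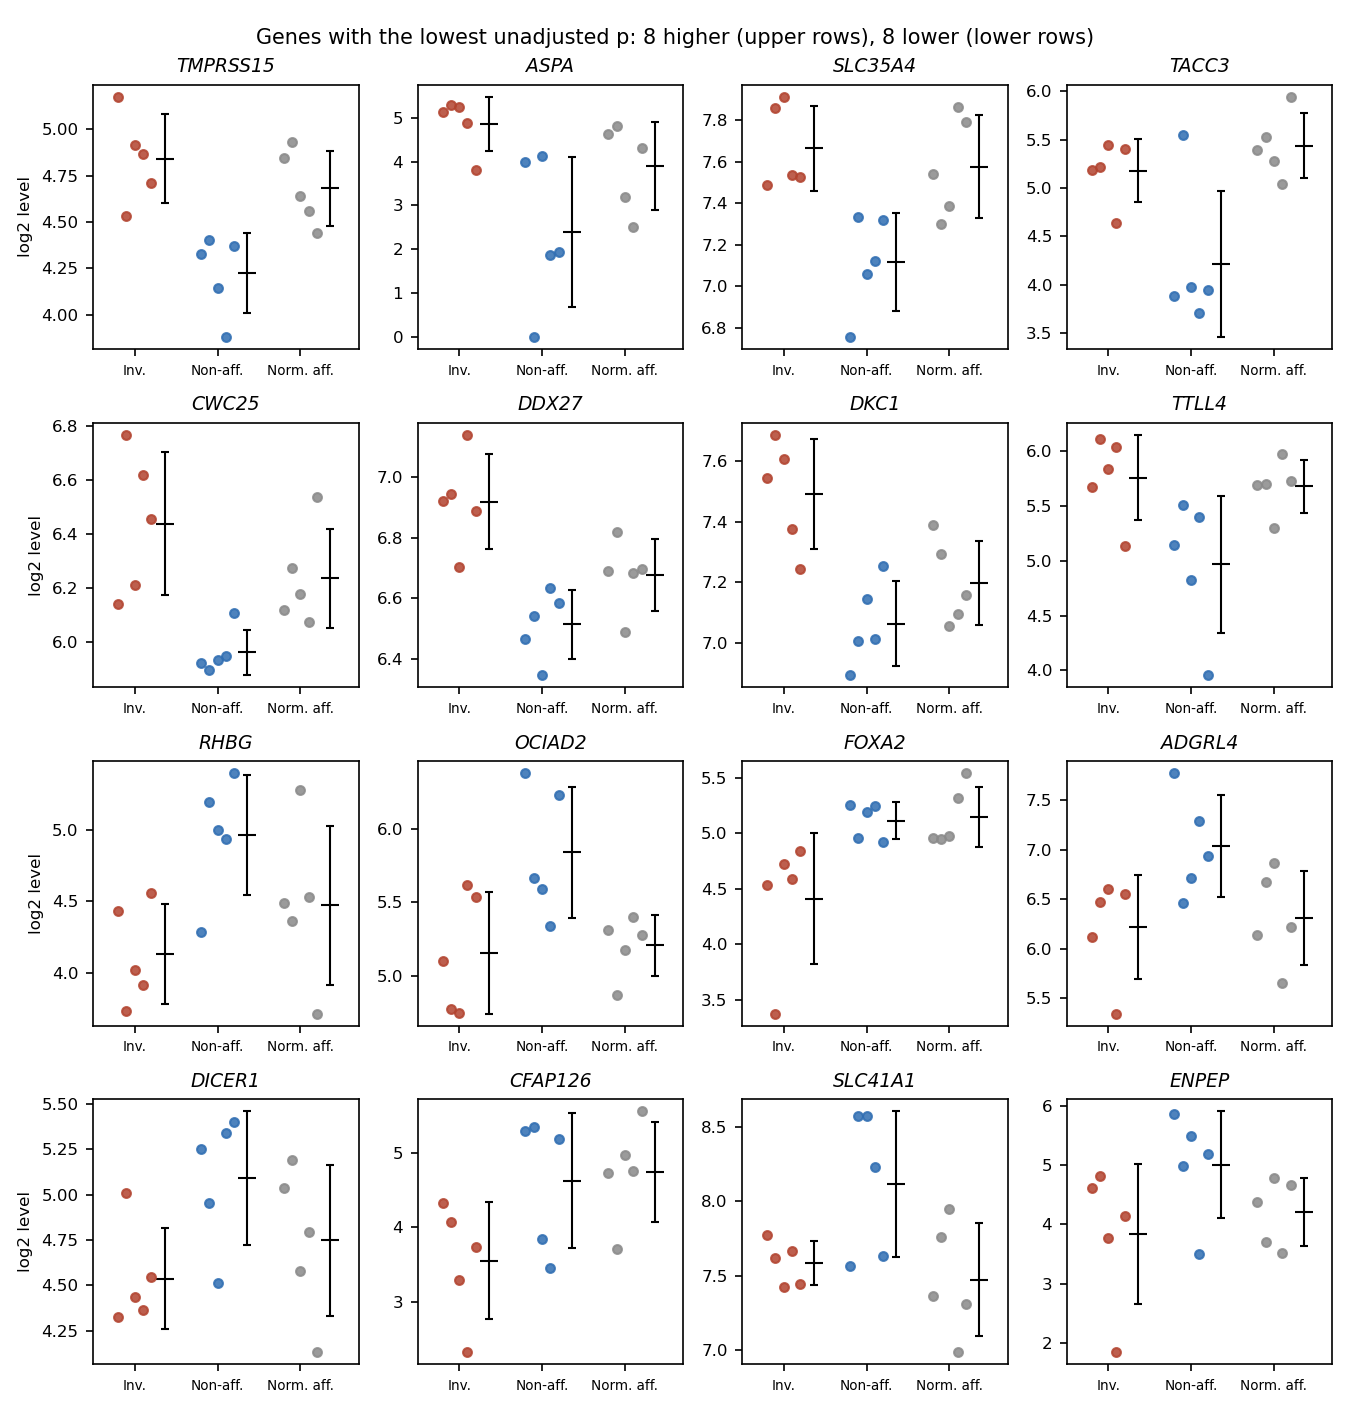
Level (log2) of the 8 higher and the 8 lower genes with the smallest unadjusted p on each mesenchymal array: inverted teats, non-affected teats and normal teats of affected animals, 5 points per group with mean ± SD. The inverted and non-affected points do not overlap for TMPRSS15, SLC35A4, CWC25, DDX27 and FOXA2, and several genes lie below a level of 5.

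Genes that build the teat were measured in part. Of the list of teat and mammary bud genes, 19 could be tested, 14 with a higher mean in inverted teats, with a median difference of 0.17 against 0.05 over all probe sets; none had an unadjusted p under 0.05. After quantile normalization 11 of the 19 were higher, and without the non-affected array of animal 950 the median was 0.06. PTHLH was 7.51, 7.67, 5.36, 6.75 and 5.79 in inverted teats and 6.51, 8.15, 5.25, 4.64 and 4.96 in non-affected teats. The groups overlapped over most of their range, and the difference of 0.71 ± 0.70 had a 95% interval from -0.78 to 2.20. The 3 arrays with the highest PTHLH of the 10 (957, 964 and 963) were also the 3 with the highest keratin mean.

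PTH1R, its receptor, was 6.06, 5.94, 5.63, 5.10 and 6.20 against 5.07, 6.22, 6.26, 4.24 and 6.14. The difference was 0.20 ± 0.41, and it turned to -0.14 without the non-affected array of animal 1058. MSX1, a homeobox gene of bud mesenchyme and epithelium, differed by -0.19 ± 0.29 (4.94 ± 0.48 against 5.13 ± 0.40, SD, n = 5 each). WNT10B, an early bud ligand, differed by 0.25 ± 0.18, the smallest p of the list. LEF1, the Wnt target of bud formation, had a probe set but was under the level for testing, and TBX3 had none with a single symbol.

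The widest members of that list were gland genes. AREG, amphiregulin, the estrogen-induced ligand of ductal growth, differed by 1.75 ± 1.76, and FOXA1, a luminal transcription factor, by 1.30 ± 1.83. GATA3, which marks luminal cells, differed by 0.96 ± 0.77. Each of these errors is as large as, or near, its difference. The differences of BMP4 (0.17 ± 0.23), HOXD8 (0.01 ± 0.26) and TNC (0.03 ± 0.51), genes placed in mesenchyme, were smaller. Each was below its own error, and a contrast between gland and mesenchymal genes was not tested.

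Hormone receptors and their partners showed no common direction. In the list of the steroid, prolactin and growth hormone axis, 15 of 26 tested genes were higher, and the median was 0.01 as deposited and -0.03 after quantile normalization. ESR1, the estrogen receptor, was 8.72, 8.93, 6.17, 7.50 and 6.95 in inverted teats and 6.98, 8.96, 6.05, 6.55 and 6.58 in non-affected teats. The highest value in each group was on an array with a high keratin mean (964 and 957), the groups overlapped, and the difference was 0.63 ± 0.66. GHR, the growth hormone receptor, was 7.54, 6.59, 7.11, 7.52 and 7.85 against 7.69, 7.26, 7.56, 6.87 and 8.54, a difference of -0.26 ± 0.29. PGR and PRLR were under the level for testing.

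Among growth factors, 17 of 23 tested genes were higher, with a median of 0.11. IGF1, insulin-like growth factor 1, was 6.92, 7.11, 7.02, 6.68 and 6.70 in inverted teats and 6.29, 6.94, 6.09, 6.49 and 7.03 in non-affected teats, a difference of 0.32 ± 0.24. Its 2 other probe sets gave -1.87 and 0.28, so the gene's direction depends on the probe set. In the TGF-beta and BMP list 19 of 25 were higher (median 0.10), and TGFB1 differed by 0.19 ± 0.32. The extremes by p were ACVR2B, an activin receptor, at -0.33 ± 0.18 and FSTL3, an activin antagonist, at 0.33 ± 0.20. Of 12 Wnt genes 7 were higher (median 0.14), led by the secreted inhibitor DKK3 at 0.95 ± 0.54. Of 9 Notch and hedgehog genes 5 were higher, with a median of 0.01 that turned to -0.04 after quantile normalization.

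**Figure D4:**
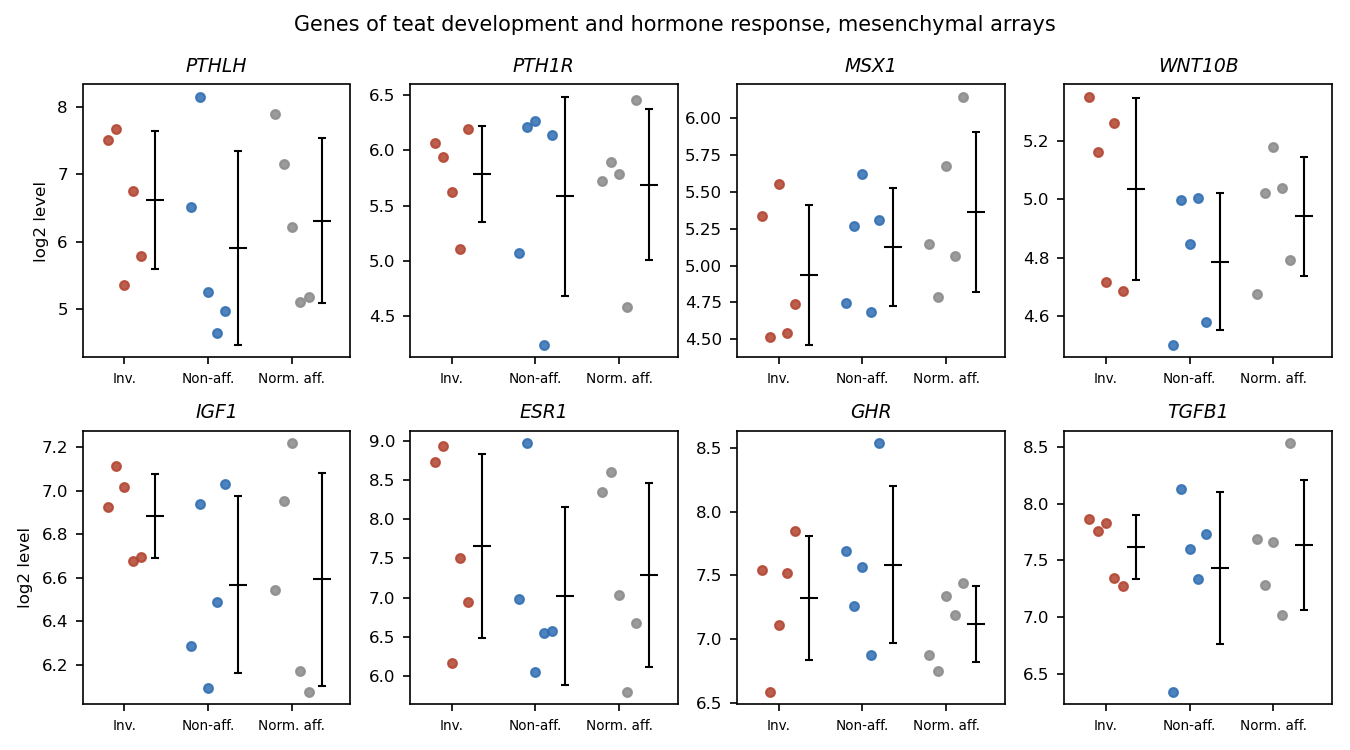
Level (log2) of PTHLH, PTH1R, MSX1, WNT10B, IGF1, ESR1, GHR and TGFB1 on each mesenchymal array, in inverted teats, non-affected teats and normal teats of affected animals, 5 points per group with mean ± SD. Every pair of groups overlaps, and PTHLH spans 4.64 to 8.15 within the non-affected group alone.

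Of 31 tested genes in the fibroblast and matrix list, 30 had a higher mean in inverted teats, against 58.7% of all probe sets, and their median difference was 0.19. After quantile normalization it was 27 of 31 and 0.11. None had an unadjusted p under 0.05. The mean of the list on each array was 10.50, 10.52, 9.9995, 10.03 and 10.09 in inverted teats and 9.87, 10.30, 9.98, 9.73 and 10.11 in non-affected teats. Arrays 963 and 964 were the highest and the other 3 inverted arrays lay within the non-affected range. Leaving out each array in turn gave medians from 0.12 (without inverted 963) to 0.28 (without non-affected 957).

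Its members with the smallest p modify or assemble collagen and elastic fibres. PLOD1, a collagen lysyl hydroxylase, was 8.70 ± 0.19 against 8.30 ± 0.35 (SD, n = 5 each), a difference of 0.41 ± 0.23, and its other probe set gave 0.23. P4HA2, a collagen prolyl hydroxylase, differed by 0.37 ± 0.23, SERPINH1, the collagen chaperone, by 0.41 ± 0.27, and MFAP5, a microfibril protein, by 0.31 ± 0.19. Of the collagens, COL1A2 differed by 0.21 ± 0.29, COL5A1 by 0.30 ± 0.29 and COL6A3 by 0.13 ± 0.18. COL3A1, the only member with a lower mean, differed by -0.05 ± 0.44.

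Matrix proteases and their inhibitors had 14 of 17 members higher (median 0.15, and 0.04 without non-affected 1058). The smallest p in each direction belonged to MMP9, a gelatinase, at 0.41 ± 0.22 and to MMP3, stromelysin, at -0.19 ± 0.18, another probe set of which gave 0.31. MMP7, matrilysin, had the largest difference, 1.89 ± 1.83, and TIMP1, a protease inhibitor, differed by 0.46 ± 0.30. Integrins and adhesion genes had 9 of 13 higher (median 0.23), and SDC4, a syndecan, differed by 0.31 ± 0.18. Basement membrane genes had 6 of 9 higher, with a median of 0.06 close to that of all probe sets. Smooth muscle genes, which form the sphincter and wall of the teat, had 13 of 21 higher, and their median of 0.07 turned to -0.0018 after quantile normalization. ACTG2, enteric smooth muscle actin, ranged from 7.99 to 11.91 in inverted and from 8.50 to 10.51 in non-affected teats.

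The medians of lists of neighbouring tissues changed to unequal degrees when single arrays were left out, and the cause was not tested. The mammary luminal and milk list had the largest median of the 33 lists, 0.48, with 19 of 25 members higher. KRT8, KRT18 and KRT19 differed by 1.78 ± 1.44, 1.66 ± 1.79 and 1.82 ± 2.01, whereas the casein genes CSN2, CSN1S1 and CSN3 differed by -0.12 ± 2.97, -0.29 ± 2.58 and -0.25 ± 2.35. Without inverted 964 the list median was 0.16 and without non-affected 957 it was 1.03. The keratinocyte list had 9 of 10 members higher (median 0.30), led by TRIM29 at 1.42 ± 0.79, while its epidermal keratin KRT10 differed by 0.12 ± 0.23. With an array left out the keratinocyte median ran from 0.19 to 0.40.

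Of 22 adipocyte genes 7 were higher and the median was -0.15, with LPL, lipoprotein lipase, at -0.33 ± 0.31 and FABP4, a fatty acid binding protein, at -0.21 ± 0.26. PLIN2, which coats lipid droplets in many cell types, went the opposite way at 0.90 ± 0.44. Without inverted 964, whose fat level was the lowest of the 10 (list mean 8.43), the median was 0.15. Fast skeletal muscle genes had 4 of 12 higher and a median of -0.03. That median was 1.75 without inverted 963 and -1.75 without non-affected 1040. The slow muscle list (8 of 10 higher, median 0.11) and the list of common sarcomere genes (10 of 22 higher, median -0.04) moved with the same arrays.

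In the remaining tissue lists no member had an unadjusted p under 0.05. Endothelial genes had 13 of 19 higher (median 0.16, and -0.06 without inverted 1037), leukocyte genes 14 of 20 (median 0.16, and -0.06 without non-affected 1058), erythrocyte genes 2 of 3 (median 0.11) and Schwann cell and nerve genes 5 of 9 (median 0.03 as deposited and -0.01 after quantile normalization). Hair follicle and skin gland genes had 1 of 5 higher (median -0.24), where SCGB1D1, a secretoglobin, differed by -2.11 ± 2.56. In the list of sex-linked genes only EIF1AY was tested, at -0.08 ± 0.28. Inflammation, cytokine and chemokine genes had 21 of 30 higher (median 0.17), with TNFRSF1A, a TNF receptor, at 0.44 ± 0.21. Interferon genes had 16 of 23 higher (median 0.06, and -0.15 without inverted 1037), and MX1 was 9.73 on inverted array 1037.

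Of 58 ribosomal protein genes tested, 57 had a higher mean in inverted teats, with a median of 0.14; after quantile normalization it was 47 of 58 and 0.08. The array means were 12.34, 12.40, 12.28, 12.16 and 12.42 in inverted teats and 12.31, 12.21, 12.22, 11.91 and 12.29 in non-affected teats. The groups overlapped, and the non-affected array of animal 1058, the one with the lowest keratin mean, was the lowest. Without it the median was 0.08. Inverted array 1037, with the next lowest keratin mean (5.19), had a higher ribosome mean (12.28) than non-affected array 957 (12.21), whose keratin mean was 10.65. A link between keratin and ribosome means was not tested. The gene with the smallest p, RPL14, was 12.4 ± 0.11 against 12.2 ± 0.13 (SD, n = 5 each), and RPS18, the only member with a lower mean, had 2 other probe sets at 0.13 and 0.25.

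Proteasome genes had 28 of 32 higher (median 0.10), heat shock and chaperone genes 27 of 35 (median 0.16), cell cycle genes 19 of 26 (median 0.18) and respiratory chain genes 42 of 57 (median 0.06, and -0.02 after quantile normalization). Only 2 members of the 33 lists had an unadjusted p under 0.05 (limma), where 219 of all 17850 probe sets did (1.23%). They were 1 of the 35 heat shock and chaperone genes and 1 of the 26 cell cycle genes. HYOU1, a chaperone of the endoplasmic reticulum, was 8.01 ± 0.38 against 7.57 ± 0.33, and CCND2, cyclin D2, 7.96 ± 0.56 against 7.39 ± 0.29 (SD, n = 5 each), differences of 0.44 ± 0.21 and 0.57 ± 0.24 that failed limma's adjustment (adjusted p of 1.0 for both). Immediate early genes had 17 of 25 higher (median 0.09), hypoxia and glycolysis genes 10 of 23 (median -0.01) and the housekeeping list 7 of 11 (median 0.06). Over the 33 lists, 27 medians were above 0 and 24 above the median of all probe sets, and 5 changed sign with the scaling of the arrays.

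**Figure D5:**
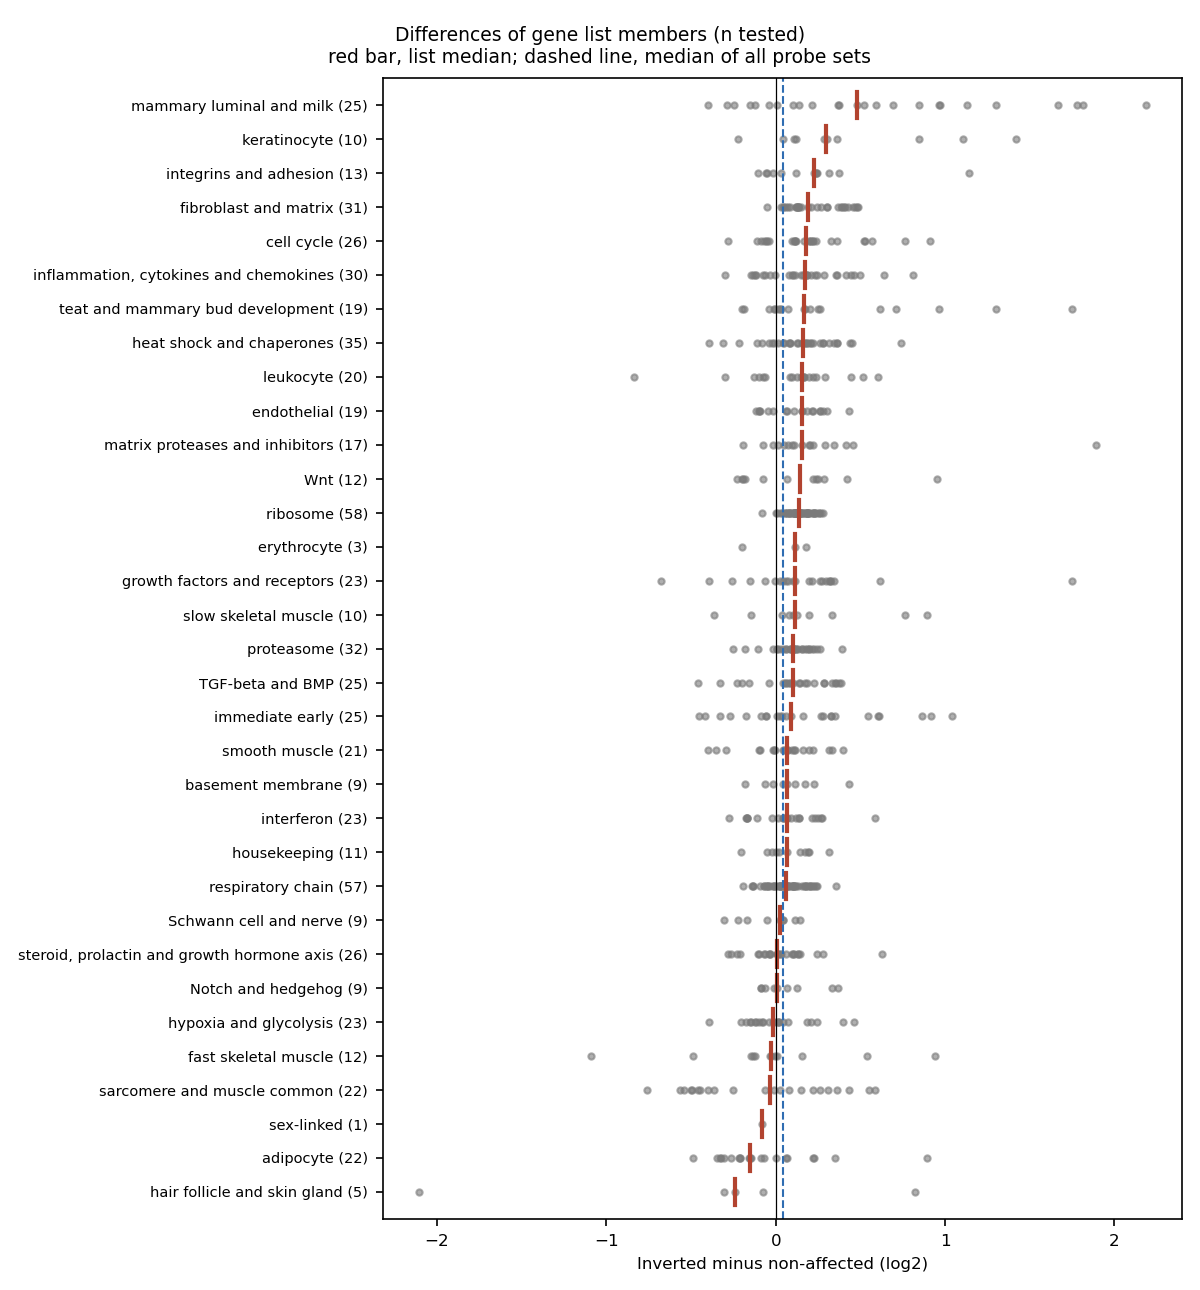
Difference between inverted and non-affected mesenchyme (log2) of each tested member of the 33 gene lists (grey points), the list median (red bar) and the median of all probe sets (dashed line, 0.05). The ribosome and matrix lists lie almost wholly above 0 within a narrow range. The mammary luminal and milk list has the largest median (0.48), with members from -0.40 to 2.18.

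The same contrast was available in epithelial tissue, and the difference between the tissues was tested over 30 arrays. Each animal gave arrays of both tissues, but this fit had no term for the animal, so its errors and p-values leave that pairing out. With the animal as a replicate block, 557 probe sets had an unadjusted p under 0.05 (limma) and 0 passed the adjustment. Of 18795 probe sets, 0 had an adjusted p under 0.05 for the difference between the mesenchymal and the epithelial contrast (limma), and 227 an unadjusted p under 0.05 (1.21%). ASPA was among those with the smallest p, with the mesenchymal contrast above the epithelial one by 2.22 ± 0.77. SLC26A6, an anion exchanger, stood at 1.31 ± 0.42 and LOC100125545 at 0.71 ± 0.25. In the other direction were NR5A1, a steroidogenic transcription factor (-0.79 ± 0.22), CHGB, chromogranin B (-1.06 ± 0.41), and RXRG, a retinoid receptor (-1.74 ± 0.68).

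The medians of the matrix and ribosome lists had opposite signs in the 2 tissues, which was not particular to them. The median of all probe sets was 0.05 in mesenchyme and -0.02 in epithelium. Other lists also differed in sign, such as the proteasome list (0.10 and -0.03) and the mammary luminal and milk list (0.48 and -0.35). Some did not, such as the endothelial list (0.16 and 0.18). In epithelium 9 of 31 matrix genes were higher in inverted teats (median -0.15), and in 30 of 31 the mesenchymal contrast was above the epithelial one, against 59.6% of all probe sets. Of 58 ribosomal protein genes 4 were higher in epithelium (median -0.11), and in 55 the mesenchymal contrast was the higher. The median of mesenchymal minus epithelial contrast was 0.24 over the 58 genes, against 0.06 over all probe sets. An unadjusted p under 0.05 for that difference was reached by 0 of 31 matrix and 5 of 58 ribosomal protein genes, against 1.21% of all probe sets. None passed the adjustment (limma). Genes of a list share the same arrays and are not replicates, and the fit had no term for the animal.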

How the data were processed

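Total RNA from 30 teat samples of 10 pigs was hybridised to 1 array each, per the labels. The values are the log2 signals the authors deposited, without a stated log base; the submitters' processing notes name GCOS 1.1.1 and PLIER without role or order. The base was read from the range of the values, of which 17 exceed 16 (highest 20.8, on 4 probe sets). The file holds 24123 probe sets, of which 124 array controls were left out. Of the probe sets, 10099 carried 1 gene symbol, 198 several and 13826 none in GEO's platform annotation; symbols were updated through Entrez identifiers against RefSeq, which held 9989. Where a gene had several probe sets, the one brightest on average across all 30 arrays stood for it (6765 genes, 6102 tested).

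Limma 3.58.1 in R 4.3.3 fitted 3 group means over the 15 mesenchymal arrays, without covariates, on 17850 probe sets above their array's 30th percentile on at least 5 arrays. The Benjamini-Hochberg threshold was 0.05 and intervals are at 95%. Errors after ± are standard errors of the difference unless marked SD. The difference between tissues was fitted over 30 arrays by group means, without a term for the animal, although each animal gave both tissues. Arrays have no read depth; the number of arrays, the background and the unequal tissue content of the samples limit the precision. Each sample comes from a different animal within a group. The scripts were tested on simulated data.

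Named genes were those with the smallest unadjusted p where none passed the adjustment, 8 in each direction; of each list the member with the smallest p in each direction; 12 genes of teat development and hormone response wherever tested; and the 3 smallest p in each direction for the difference between tissues. The text gives most of them, and other list members as examples. Members and lists were chosen with earlier results of these data known.

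The animal numbers link the inverted and the normal teat of an affected animal, whose deviations from the group means correlated at 0.13 to 0.70 (5 pairs). They do not link the groups compared, which hold different animals.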

Additional observations from a re-analysis of the deposited data

Results flagged for a closer look

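Single arrays stood apart from the other 4 of their group in 18 of 238 checks of named genes and list means, by Dixon's ratio; chance gives about 1 in 20. Muscle accounts for part of them: the fast skeletal muscle mean was 3.16 on inverted 963 and 2.96 on non-affected 1040, where TNNI2, fast troponin I, was 4.74 and 0. Array 964 of the inverted group was high for CSN1S2, a casein (8.62), SCGB1D1 (20.8), RGS5, a pericyte gene (9.62), and the TGF-beta and BMP mean (6.88), and low for FOXA2 (3.38). In the other inverted samples, ASPA was low on 1103 (3.80), CD2, a T cell receptor partner, was listed at 0 on 1059 and MX1 was high on 1037 (9.73). In non-affected samples, CSN1S2 was high (9.53) and MFGE8, a milk fat globule protein, low (7.73) on 950, TACC3 was high on 957 (5.55), CWC25 was high on 1109 (6.11), the heat shock and chaperone mean was low on 1040 (8.67) and the ribosome mean low on 1058 (11.9).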

How the results depend on the processing

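The count of probe sets passing the adjustment was 0 under each alternative run, including each array left out in turn (lowest adjusted p 0.370, without non-affected 957) and the 3 against 3 Large White x German Landrace animals (0.575). The 219 probe sets with an unadjusted p under 0.05 became 446 with no filter, 128 with the 50th percentile filter, 338 without variance moderation, 450 with the keratin mean, 430 with CSN2, 449 with CSN2 and the fast muscle mean as covariates (added after seeing the data), and 160 (without inverted 964) to 439 (without non-affected 957) with an array left out. The 65 whose groups did not overlap became 43 after quantile normalization, 889 among the Large White x German Landrace animals (3 against 3, where overlap is easier to avoid), 218 without both arrays low in muscle transcripts (added after seeing the data) and 96 to 171 with an array left out. For the difference between tissues, the 227 became 435 with no filter, 139 with the 50th percentile filter and 417 with array weights. The replicate block on the animal number gave 168 for the mesenchymal contrast and 557 for the difference between tissues, with 0 adjusted calls in both (estimated correlation 0.51 and 0.28).

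Of 2300 values of the 86 named genes under alternatives, 48 in 26 genes changed sign; the cause was not tested. With an array left out the differences ranged from -0.49 to 0.076 for ALAS2, -0.084 to 1.57 for AQP5, -1.17 to 0.11 for CD2, -0.31 to 0.012 for COL15A1, -0.27 to 0.17 for COL3A1, -1.28 to 0.61 for CSN1S2, -0.16 to 0.023 for DLL4, -0.23 to 0.22 for EIF1AY, -0.68 to 0.28 for GBP1, -0.58 to 0.037 for HSPA2, -1.84 to 0.80 for MYBPC1, -2.98 to 0.78 for MYH2, -0.094 to 0.40 for NEFL, -0.43 to 0.13 for PGK1, -0.14 to 0.37 for PTH1R, -0.084 to 0.36 for TGFB1, -0.20 to 1.80 for TNNI1 and -1.47 to 2.40 for TNNI2. Without both arrays low in muscle, ALAS2 was 0.20 and TNNI2 -0.0073. With the keratin covariate AQP5 was -0.31, COL15A1 0.0023 and SDC1 0.024. In the Large White x German Landrace animals COL3A1 was 0.27, MYBPC1 1.57, MYH2 1.30 and NEFL -0.035. With array weights CSN1S2 was 0.048, EIF1AY 0.098, HBM -0.023, PTH1R -0.11 and TGFB1 -0.042. Other probe sets gave -1.87 for IGF1, 0.31 for MMP3, 0.0088 for NDUFB3, 0.13 and 0.25 for RPS18, 0.68 and 0.70 for SDC1, 0.14 and 0.23 for SLC41A1 and 0.10 for VEGFA. With 5 animals a group and gland and muscle content differing between arrays, the median 95% interval reached 0.55 either way, and low signals limit TMPRSS15, ASPA and the other genes near background.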

Other observations

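Lists of ribosome assembly, translation and early secretion genes were drawn up after the values were seen, so their counts are descriptions with no test. Over all 17850 probe sets, 65 had groups that did not overlap, 59 of them higher in inverted teats. Among the 6102 tested genes with a single symbol there were 28, of which 27 were higher. They include the translation factors EIF3D (0.33 ± 0.20), EIF3K (0.24 ± 0.14) and EEF1D (0.20 ± 0.14), the ribosomal proteins RPL13 (0.28 ± 0.15) and FAU (0.19 ± 0.12), and TMED4 (0.40 ± 0.15), SDF4 (0.40 ± 0.18) and STX5 (0.31 ± 0.14) of the endoplasmic reticulum and Golgi. Of 42 tested genes of the nucleolus and ribosome assembly, 36 had a higher mean in inverted teats (median 0.18, and 0.14 after quantile normalization). An unadjusted p under 0.05 was reached by 4 of them, where 1.23% of all probe sets reached it (0.88% upward) and the list was picked with these values seen: DDX27, DKC1, FBL, fibrillarin (0.38 ± 0.16), and NOC2L (0.42 ± 0.18). Of 34 translation factors 27 were higher (median 0.13; 22 and 0.09 after quantile normalization), with 3 at an unadjusted p under 0.05, EIF4A1 (0.42 ± 0.18), EIF4B (0.46 ± 0.20) and EIF4A3 (0.37 ± 0.17). Of 51 genes of the early secretory pathway 42 were higher (median 0.14; 36 and 0.07 after quantile normalization), with 4 such genes. The limma adjustment passed none of them. Of these lists, DDX27, 3 translation factors and 3 secretory genes had groups that did not overlap, where 0.364% of all probe sets did. As the lists were picked with the values seen, these counts are no result about the lists. In epithelium 24 of 42 nucleolar genes (median 0.03), 14 of 34 translation factors (median -0.01) and 9 of 51 secretory genes (median -0.12) were higher, against 45.3% of all probe sets.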
